A study of Mus musculus with 4 samples.

Results

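Transcripts of 35 genes of protein folding in the endoplasmic reticulum (ER) and of the unfolded protein response were followed in aorta libraries of GGPPS knockout and wild-type mice. The members were taken by symbol from the 24346 rows of each library's table, and all 35 were found. The 4 libraries came from C57BL/6 mice of 3 weeks, 2 of genotype WT and 2 of genotype KO, and each is labelled as holding tissue of both sexes. Per the labels' protocols, poly(A) RNA was fragmented, primed with random hexamers and sequenced. GGPPS, encoded by Ggps1, makes geranylgeranyl diphosphate, the lipid attached to many small GTPases. The cells in which Ggps1 was deleted, the deleted exon, any Cre driver and the number of animals behind a library are not given in the labels. Nothing says that the libraries of a genotype came from separate animals, so the p-values cover only library-to-library spread, which may be technical.

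Proteins that enter the secretory pathway pass through the Sec61 channel into the ER, where chaperones hold them and protein disulfide isomerases form their disulfide bonds. Chains that fail to fold are pulled back to the cytosol and degraded. A load of unfolded protein is sensed by the membrane proteins IRE1 (Ern1), ATF6 and PERK. IRE1 splices the mRNA of Xbp1 into an active form, cleaved ATF6 moves to the nucleus, and PERK slows translation while favouring that of ATF4. Smooth muscle cells and fibroblasts of the young aortic wall secrete collagen, elastin and other matrix proteins through this pathway. Levels are given in FPKM, a fragment number divided by transcript length and by library size, so that levels of different genes can be compared. Spliced Xbp1 cannot be told from the unspliced form in a value per gene, and activation of the sensors at the protein level was not measured.

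Ggps1 checked the labels: its level was 8.96 and 10.6 FPKM in wild type, against 1.18 and 1.07 FPKM in knockout. The smooth muscle genes Acta2, Tagln and Myh11 were abundant in every library, and lower in knockout. All 10 contractile smooth muscle markers fell (median log2 fold change -2.27), and their summed level went from 21009 and 23385 FPKM to 4966 and 6587 FPKM. All 10 macrophage markers rose, with a summed level of 76.2 and 75.7 FPKM in wild type, against 554 and 468 FPKM in knockout, as did all 10 general leukocyte markers, summed at 16.8 and 18.1 and at 252 and 203 FPKM. Endothelial markers fell in 8 of 9 tested cases and fibroblast markers in 7 of 10, with 2 higher. In the list of B and plasma cells, whose ER is large, Sdc1, which other cells also make, rose, and each of the other 9 genes in the files stayed at or below 0.380 FPKM in every library. Fewer cells of a type and less RNA per cell cannot be told apart in bulk tissue, and the part of these shifts in cell markers in the results on ER genes was not tested.

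Of the 35 members, 34 passed the filter on low values (at least 1 FPKM in at least 2 libraries), and Derl3 did not. By limma on log2(FPKM + 1), with Benjamini-Hochberg adjustment over all 12314 genes tested and a threshold of 0.05, 23 members were higher in knockout, 2 were lower and 9 did not pass. Over all genes tested, 35.2% were called higher and 30.6% lower. The median log2 fold change of the members, knockout minus wild type, was 0.42, beside 0.03 for all genes tested. Both knockout libraries lay above both wild-type libraries for 27 members, an order found for 43.6% of all genes tested, and below them for 2, an order found for 39.6%. The translocon, the chaperones and the disulfide isomerases carried most of the rises. Of the tested genes of ER-associated degradation 2 of 7 were called higher, and of the sensors 1 of 3. Both are near the 35.2% of all genes tested. Summed over all 35 genes, the level was 2791 and 2653 FPKM in wild type, against 4112 and 4646 FPKM in knockout, or 0.541% and 0.510% of all FPKM against 0.672% and 0.734%.

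**Figure D1:**
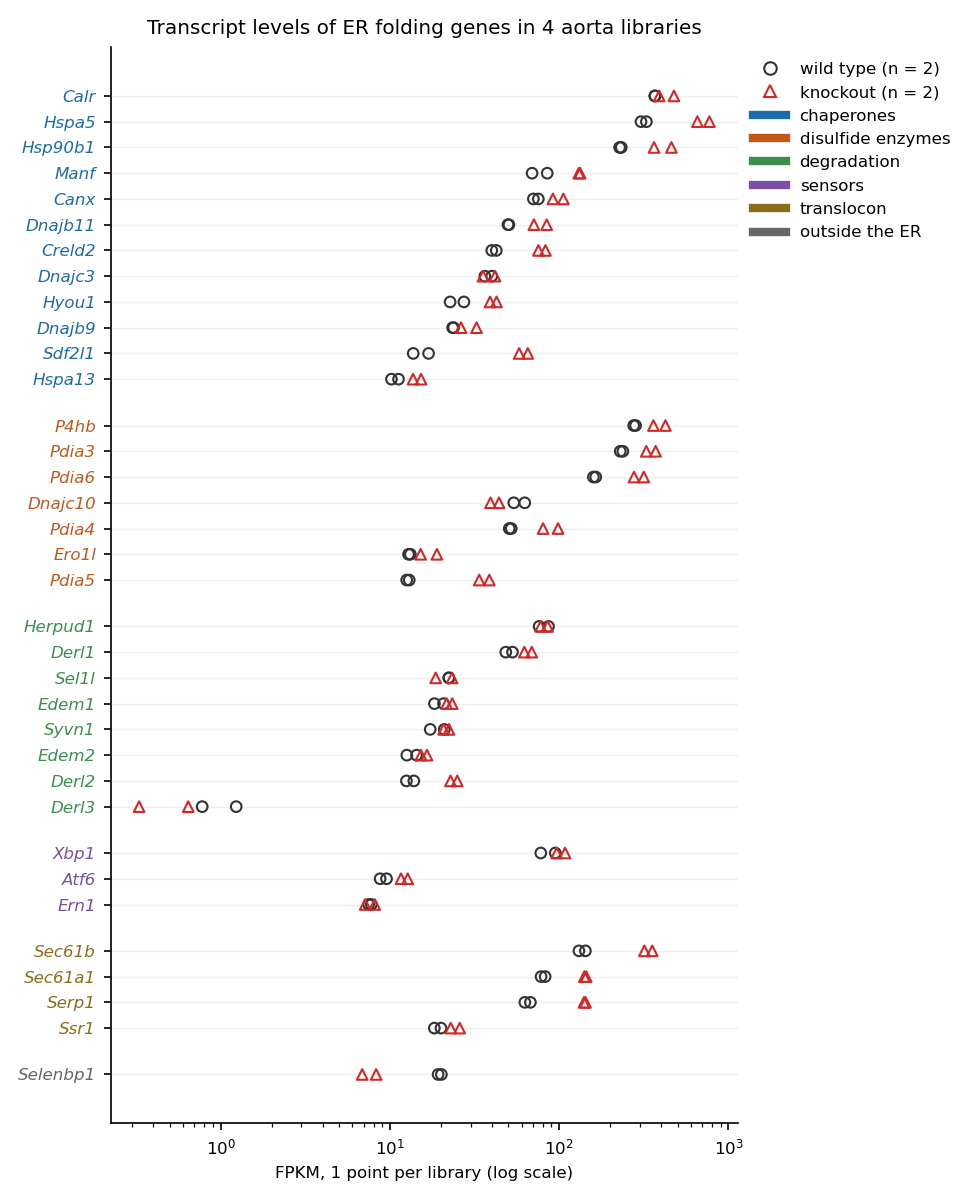
FPKM of the 35 members (log axis), with 1 point per library, circles for the 2 wild-type and triangles for the 2 knockout libraries, and symbols coloured by group. For Hspa5 and Sdf2l1 the triangles stand clear of the circles, for Herpud1, Dnajc3 and Ern1 they overlap, and for Dnajc10 and Selenbp1 they lie below.

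The deposited columns did not share a total: FPKM summed to 515927 and 520478 in wild type and to 611767 and 632918 in knockout. With the column totals made equal, the median log2 fold change of all genes tested moved from 0.03 to -0.20, and the calls among the members became 15 higher and 4 lower, beside 25.3% and 45.3% of all genes tested. The members' median was then 0.16, still above that of all genes tested by 0.36 on the log2 scale, against 0.39 with the values as deposited. Calls named below hold in both scalings unless the equal-total value is given. The rises of Dnajb11, Hyou1, Manf, Pdia3 and Pdia4 held but were smaller with equal column totals, with log2 fold changes of 0.36, 0.43, 0.51, 0.31 and 0.52. Of the 25 called members, 16 kept their call and direction in all 13 alternative settings.

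The promoters of ER chaperones are known for the ER stress response element (ERSE), which ATF6 binds together with NF-Y. Its letters are CCAAT, any 9 bases, then CCACG, and those of the related element ERSE-II are ATTGG, any 1 base, then CCACG. Both were searched on both strands in the 250 bases before each gene start of RefSeq (GRCm38.p6, the assembly of mm10), with the letters TGACGTGG of the UPR element. Windows were at hand for 29 of the 35 members, and those of Hspa13, Hyou1, Manf, Derl1, Atf6 and Sec61a1 were not used here. ERSE or ERSE-II was in the windows of 10 of the 29 members (34.5%), beside 0.167% of the 27025 genes with a window. Since promoters of such genes are known for the element, this contrast is not independent of the choice of members and is no test. TGACGTGG was in none of the members' windows and in 0.603% of all genes. The matches are printed 5′ to 3′ on the strand that reads CCAAT or ATTGG first, with the fixed letters of the element in capitals, to show the bases between them, which the search left free.
Hspa5, chr2:34772025-34772043: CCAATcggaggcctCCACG
Hsp90b1, chr10:86705638-86705656: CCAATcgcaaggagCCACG
Hsp90b1, chr10:86705533-86705551: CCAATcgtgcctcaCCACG
Creld2, chr15:88819520-88819538: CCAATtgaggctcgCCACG
Pdia6, chr12:17266491-17266509: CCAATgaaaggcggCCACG
Canx, chr11:50325800-50325818: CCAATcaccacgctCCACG
Calr, chr8:84847075-84847093: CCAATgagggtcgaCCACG
Syvn1, chr19:6046532-6046550: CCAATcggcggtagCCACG
Dnajc3, chr14:118937827-118937845: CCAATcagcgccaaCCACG
Derl3, chr10:75893242-75893260: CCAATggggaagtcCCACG
Herpud1, chr8:94386377-94386387: ATTGGgCCACG

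Not all genes with this element were higher. Of the 10 members that hold it, 5 rose (Hspa5, Hsp90b1, Creld2, Pdia6 and Canx), 4 did not pass the test (Calr, Syvn1, Dnajc3 and Herpud1) and Derl3 was not tested. Of the 19 members whose window lacks both forms, 12 rose, 2 fell and 5 did not pass. Of 12 other tested genes with either form, 2 rose, 6 fell and 4 did not pass. The shares of all genes tested were 35.2% higher and 30.6% lower as deposited, and 25.3% and 45.3% with equal column totals. With equal column totals, 4 of the 10 holders were called higher and 1 lower (Canx lost its call and Herpud1 was called lower), 8 of the 19 without either form were called higher and 3 lower, and 1 of the 12 other genes was called higher and 7 lower. These counts are a description, since a match is not a bound site, and the absence of these letters says only that they are not in this window. The windows of Creld2 and Canx, which rose with the values as deposited, and of Dnajc3 and Herpud1, which did not pass the test, are printed below on the gene's strand to set the surroundings of the element side by side, again with its fixed letters in capitals.
Creld2, chr15:88819396-88819645, plus strand: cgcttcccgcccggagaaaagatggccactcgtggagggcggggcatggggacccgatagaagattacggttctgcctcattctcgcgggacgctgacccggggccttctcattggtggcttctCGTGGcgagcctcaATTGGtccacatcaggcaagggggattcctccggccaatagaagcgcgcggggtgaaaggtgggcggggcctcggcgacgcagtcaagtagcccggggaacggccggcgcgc
Canx, chr11:50325674-50325923, minus strand: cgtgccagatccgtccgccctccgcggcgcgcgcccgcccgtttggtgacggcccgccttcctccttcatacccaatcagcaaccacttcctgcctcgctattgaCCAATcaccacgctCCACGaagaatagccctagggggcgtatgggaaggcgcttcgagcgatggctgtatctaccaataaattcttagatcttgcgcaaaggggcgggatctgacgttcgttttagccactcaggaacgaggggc
Dnajc3, chr14:118937682-118937931, plus strand: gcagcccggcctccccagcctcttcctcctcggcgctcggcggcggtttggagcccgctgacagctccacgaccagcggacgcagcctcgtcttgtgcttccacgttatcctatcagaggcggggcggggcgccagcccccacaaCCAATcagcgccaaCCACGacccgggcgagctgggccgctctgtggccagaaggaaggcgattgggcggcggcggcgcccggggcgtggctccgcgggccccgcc
Herpud1, chr8:94386179-94386428, plus strand: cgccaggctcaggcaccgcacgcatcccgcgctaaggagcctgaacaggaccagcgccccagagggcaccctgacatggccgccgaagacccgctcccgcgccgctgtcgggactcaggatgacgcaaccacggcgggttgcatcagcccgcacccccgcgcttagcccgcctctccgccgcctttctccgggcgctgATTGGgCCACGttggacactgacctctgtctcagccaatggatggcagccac

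Counted from the RefSeq starts, the element of Hspa5 ends 47 bases and that of Syvn1 26 bases before the start, and the distal copy in Hsp90b1 begins 212 bases before it. The 2 copies in Hsp90b1 lie on opposite strands. Gene starts of GENCODE M21, used for the gene coordinates below, differ from those of RefSeq in part of the members. In Hspa5 the GENCODE start lies 120 bases further upstream, so that the element begins 55 bases inside that gene model. In Hsp90b1 the distal copy begins 147 bases before the GENCODE start, while in Canx, Creld2 and Syvn1 both starts are the same.

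**Figure D2:**
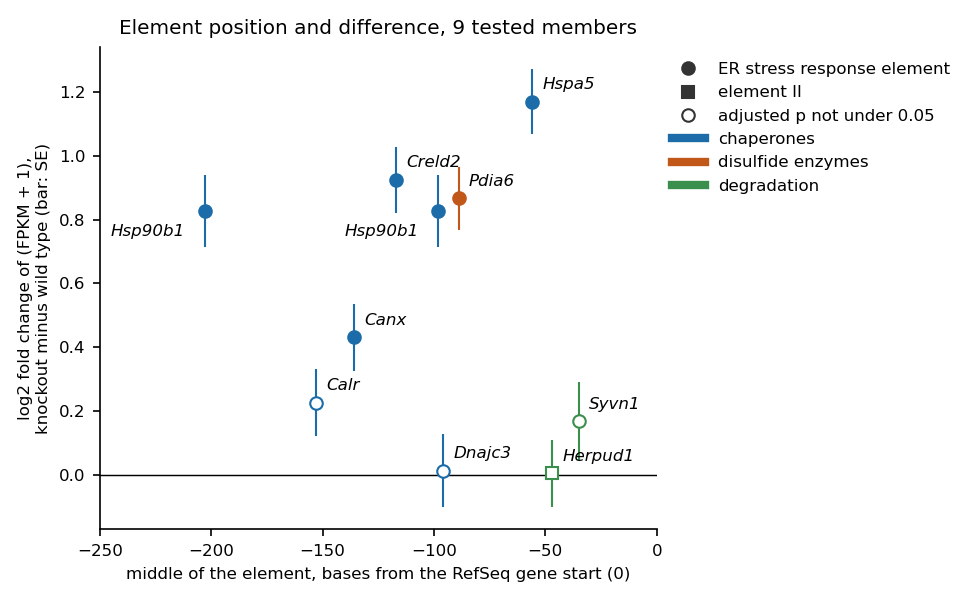
Log2 fold change of (FPKM + 1), knockout minus wild type (vertical, bars are SE), against the middle of each element in bases from the RefSeq gene start (horizontal), for the 9 tested members with ERSE (circles) or ERSE-II (square). Filled points passed the adjusted p threshold; Hspa5 stands highest at 1.17 and Dnajc3 and Herpud1 lie near 0.

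Chaperones rose in 10 of 12 cases, with a median log2 fold change of 0.65 (0.395 with 7 rises at equal column totals), and the values of all 12 lay above 0. Hspa5, or BiP, is the central Hsp70 of the ER, which also holds the sensors inactive (mm10 chromosome 2, 34771970 to 34777547, plus strand, 9 exons in the longest transcript). It was at 327 and 304 FPKM in wild type, against 655 and 771 FPKM in knockout. Both knockout libraries were above both wild-type libraries, and the mean was 2.26-fold higher (log2 fold change 1.17, SE 0.10, limma adjusted p = 2.99e-07). Hsp90b1, the ER form of Hsp90 known as GRP94, was at 233 and 227 FPKM in wild type, against 363 and 460.1 FPKM in knockout (log2 fold change 0.83, SE 0.11, limma adjusted p = 1.93e-05). Its genotypes did not overlap, though the knockout libraries lay further from each other than the wild-type ones.

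The chaperone with the largest change was Sdf2l1, a small luminal partner of the BiP cochaperones (chromosome 16, 17130138 to 17132383, minus strand, 3 exons in the longest transcript). It was at 16.9 and 13.7 FPKM in wild type, against 65.3 and 58.0 FPKM in knockout, 4.02-fold higher by the means (a log2 fold change of 1.94, SE 0.12, limma adjusted p = 1.18e-08). Only 2.94% of all genes tested had a larger log2 fold change, so the gene was high among the members and not among the extremes of the libraries. Creld2, an ER stress-induced protein with disulfide activity, went from 42.5 and 40.0 FPKM to 75.4 and 82.9 FPKM, and Manf, a factor of the ER lumen that can be secreted, from 85.0 and 69.1 FPKM to 133 and 131 FPKM. These correspond to log2 fold changes of 0.92 and 0.77 (SE 0.10 and 0.11). Hyou1, an Hsp110-type exchange factor for BiP, rose by 0.69 on the log2 scale, from 27.3 and 22.7 FPKM to 39.0 and 42.6 FPKM.

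The J-domain partners of BiP differed among themselves. Dnajb11 (ERdj3), which hands unfolded chains to BiP, rose from 50.5 and 49.8 FPKM to 70.9 and 84.3 FPKM (a log2 fold change of 0.62, SE 0.11, limma adjusted p = 0.000217). Dnajb9 (ERdj4), known as a target of spliced Xbp1 and as a partner that represses IRE1, was at 23.8 and 23.5 FPKM in wild type, against 26.3 and 32.5 FPKM in knockout. Its log2 fold change of 0.30 passed narrowly (limma adjusted p = 0.0417), and the call ended with equal column totals (0.043, adjusted p = 0.739). It also ended without wild-type library 1, wild-type library 2 or knockout library 2 (limma adjusted p = 0.155, 0.182 and 0.174), with no filter (0.0906), without a variance trend (0.0531) and with length and GC trends removed (0.11, 0.387). Dnajc3 (p58IPK), a cochaperone also known as an inhibitor of PERK, stood at 39.9 and 36.4 FPKM in wild type, against 35.5 and 41.8 FPKM in knockout. The genotypes overlapped, and the 95% interval of its log2 fold change ran from -0.23 to 0.26.

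The lectin chaperones, which bind the glycans of new glycoproteins, showed smaller differences. Canx, the membrane-bound calnexin, was at 75.3 and 70.4 FPKM in wild type, against 91.8 and 105.8 FPKM in knockout (log2 fold change 0.43, limma adjusted p = 0.00257), a call that ended with equal column totals (0.17, adjusted p = 0.135). Calr, its soluble relative calreticulin and the most abundant member in wild type, stood at 369 and 367 FPKM there and at 389 and 476 FPKM in knockout. Both knockout values were higher, but the difference did not pass (log2 fold change 0.23, limma adjusted p = 0.0731), and it was 0.37 without knockout library 1 (limma adjusted p = 0.01), 0.082 without knockout library 2, -0.036 with equal column totals and 0.016 with length and GC trends removed. Hspa13, an Hsp70 relative of the microsomes, rose from 11.2 and 10.2 FPKM to 13.7 and 15.3 FPKM (a log2 fold change of 0.40, limma adjusted p = 0.00909). That call ended with equal column totals (0.16, adjusted p = 0.212) and without wild-type library 2 (0.34, adjusted p = 0.138).

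**Figure D3:**
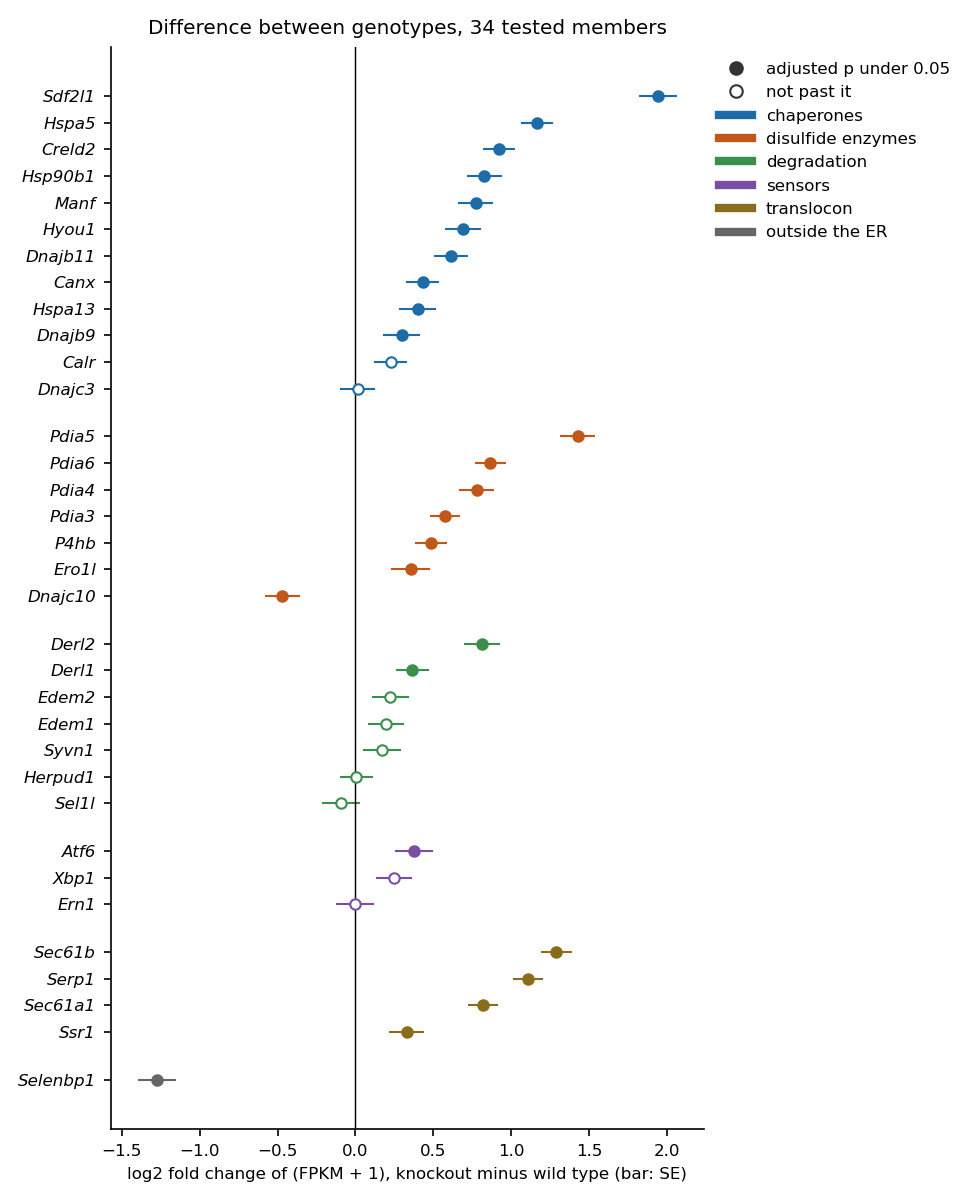
Log2 fold change of (FPKM + 1), knockout minus wild type, with SE, for the 34 tested members by group, with filled points past the adjusted p threshold of 0.05. Sdf2l1 leads the chaperones at 1.94, Pdia5 the disulfide enzymes at 1.43 and Sec61b the translocon genes at 1.29, while Selenbp1 lies lowest at -1.28.

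Disulfide enzymes rose in 6 of 7 cases and fell in 1, with a median log2 fold change of 0.57 (0.31 with 4 rises at equal column totals). Pdia5, a disulfide isomerase of low abundance known to act on ATF6, had the largest change, from 13.0 and 12.6 FPKM in wild type to 33.7 and 38.7 FPKM in knockout (log2 fold change 1.43, SE 0.11, limma adjusted p = 1.22e-07). Its mean was 2.83-fold higher, and 5.51% of all genes tested had a larger log2 fold change. Pdia6, an isomerase that works with BiP and attenuates IRE1, rose from 164 and 159 FPKM to 277 and 316 FPKM (a log2 fold change of 0.87). Pdia4, a large isomerase, rose from 52.1 and 50.7 FPKM to 80.3 and 98.4 FPKM (0.78). In both genes the wild-type libraries were close together and the knockout libraries lay well above them.

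The most abundant isomerases changed less. Pdia3, which works on glycoproteins beside Canx and Calr, went from 238 and 229 FPKM to 327 and 371 FPKM (a log2 fold change of 0.57, limma adjusted p = 0.000148). P4hb, the classical protein disulfide isomerase and a subunit of collagen prolyl 4-hydroxylase, went from 283 and 275 FPKM to 360.4 and 424 FPKM (0.49, limma adjusted p = 0.000793, and 0.22 with equal column totals, adjusted p = 0.0531). Ero1l, named Ero1a in RefSeq, is the oxidase that recharges P4hb. It was at 12.9 and 13.2 FPKM in wild type, against 15.2 and 18.9 FPKM in knockout (log2 fold change 0.36, limma adjusted p = 0.0233). Its call ended with equal column totals (0.11, adjusted p = 0.411) and without wild-type library 1, wild-type library 2 or knockout library 2 (limma adjusted p = 0.131, 0.0951 and 0.108), as well as with no filter (0.0663).

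Against the other disulfide enzymes, Dnajc10 (ERdj5) was lower in knockout. It is the reductase of the set, a J protein that opens disulfide bonds of chains bound for degradation. It stood at 53.9 and 62.6 FPKM in wild type, against 39.3 and 44.1 FPKM in knockout (log2 fold change -0.47, SE 0.11, limma adjusted p = 0.00218). Both knockout libraries lay below both wild-type libraries. The call ended when wild-type library 2 was left out (-0.37, limma adjusted p = 0.0691). It was -0.73 with equal column totals.

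Of the 7 tested genes of ER-associated degradation, 2 rose and 5 did not pass, while 35.2% of all genes tested were called higher. Their median log2 fold change was 0.20, and -0.057 with 1 rise and 2 falls at equal column totals. Derl2 and Derl1 belong to the derlins, which line the route out of the ER membrane. Derl2 was at 13.8 and 12.5 FPKM in wild type, against 22.8 and 25.0 FPKM in knockout (log2 fold change 0.81, SE 0.11, limma adjusted p = 2.94e-05). Derl1 went from 53.0 and 48.3 FPKM to 62.2 and 68.8 FPKM (0.37, limma adjusted p = 0.00765), a call that ended with equal column totals (0.11, adjusted p = 0.347) and without wild-type library 2 (0.30, adjusted p = 0.131). Derl3, the derlin of professional secretory cells, was at 0.778 and 1.24 FPKM in wild type, against 0.643 and 0.330 FPKM in knockout, so it was near or under the filter in every library. With no filter its log2 fold change was -0.43 (limma adjusted p = 0.0661).

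Syvn1, Sel1l and Herpud1 did not pass the test. Syvn1 (HRD1), a ubiquitin ligase of the ER membrane, stood at 20.9 and 17.3 FPKM in wild type, against 22.3 and 20.8 FPKM in knockout, and its partner Sel1l at 22.3 and 22.3 FPKM and at 18.6 and 23.3 FPKM. Herpud1, a membrane protein that binds Syvn1 and a known target of ATF6 and ATF4, was at 86.4 and 76.1 FPKM in wild type, against 77.6 and 85.4 FPKM in knockout. The genotypes overlapped in all 3 genes, and the 95% intervals of the log2 fold changes were -0.09 to 0.43 for Syvn1, -0.36 to 0.17 for Sel1l and -0.22 to 0.23 for Herpud1. With equal column totals Herpud1 and Sel1l were called lower (-0.25, adjusted p = 0.0374, and -0.35, adjusted p = 0.0149). Edem1 and Edem2, which trim mannose from chains bound for degradation, were each slightly higher in both knockout libraries without passing (log2 fold change 0.20 and 0.23, limma adjusted p = 0.148 and 0.11).

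Among the sensors, 1 of 3 genes rose, beside 35.2% of all genes tested. Atf6 was at 8.75 and 9.55 FPKM in wild type, against 11.6 and 12.7 FPKM in knockout (log2 fold change 0.38, limma adjusted p = 0.013), a call that ended with equal column totals (0.14, adjusted p = 0.273) and when either wild-type library was left out (adjusted p = 0.166 without library 1 and 0.0543 without library 2). With length and GC trends removed it was 0.68 (adjusted p = 0.000188). Ern1, which encodes IRE1 alpha, was at 7.49 and 7.76 FPKM in wild type, against 7.14 and 8.13 FPKM in knockout, with a 95% interval of the log2 fold change from -0.26 to 0.26. Xbp1, the transcription factor that IRE1 activates, was at 94.8 and 77.8 FPKM in wild type, against 96.6 and 108 FPKM in knockout (0.25, limma adjusted p = 0.0702). Its knockout libraries lay just above the higher wild-type library, and the difference moved with the setting. Leaving out wild-type library 1 gave 0.39, a value that passed (limma adjusted p = 0.0387), and leaving out wild-type library 2 gave 0.11 (adjusted p = 0.603). Equal column totals gave -0.012 (adjusted p = 0.927), and removal of the trends with length and GC gave 0.074 (adjusted p = 0.608).

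Removing the trends with transcript length and GC content from each library left 25 members called higher and 2 lower. The share of all genes called in this setting is not given here, so these counts have no rate beside them. The same removal moved the value of 12 members by over 1.5 times or across 0. The 7 that moved up have longest transcripts of 4080 to 9333 bases. Among these, Ssr1 went to 0.72 (limma adjusted p = 0.000142), Atf6 to 0.68 (0.000188), Edem1 to 0.42 (0.00423), Syvn1 to 0.37 (0.0111) and Ern1 to 0.36 (0.00919), so Edem1, Syvn1 and Ern1, not called with the values as deposited, passed the threshold. Sel1l and Dnajc3 moved up to 0.17 and 0.13 without passing (0.172 and 0.291). The 5 that moved down have longest transcripts of 1952 to 2461 bases. Dnajb9 fell short of the threshold at 0.11 (limma adjusted p = 0.387), and Edem2, Xbp1, Calr and Herpud1 stood at 0.081, 0.074, 0.016 and -0.20, none of them past it.

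All 4 genes of the translocon rose, with a median log2 fold change of 0.96 (0.70 with 3 rises at equal column totals). Sec61b, a small subunit of the Sec61 channel (chromosome 4, 47474658 to 47483242, plus strand), went from 143 and 131 FPKM in wild type to 354 and 319 FPKM in knockout, 2.46-fold higher by the means (a log2 fold change of 1.29, SE 0.10, limma adjusted p = 8.72e-08). Sec61a1, the pore itself, went from 82.6 and 78.1 FPKM to 141 and 144 FPKM (0.82, SE 0.10, limma adjusted p = 5.12e-06). Serp1 (RAMP4), a small protein that stabilises membrane proteins at the channel under stress, went from 67.6 and 62.7 FPKM to 140.1 and 143 FPKM (1.11, SE 0.10, limma adjusted p = 3.31e-07). In these 3 genes the libraries of a genotype lay close together and far from the other genotype. Ssr1, a subunit of the translocon-associated complex, rose by 0.33 on the log2 scale, from 20.0 and 18.3 FPKM to 22.9 and 25.8 FPKM (limma adjusted p = 0.0215). Its call ended with equal column totals (0.077, adjusted p = 0.527) and without wild-type library 1, wild-type library 2 or knockout library 2 (adjusted p = 0.0686, 0.227 and 0.0778). With length and GC trends removed it was 0.72 (adjusted p = 0.000142).

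Selenbp1, the last member, is known as a cytosolic selenium-binding protein with methanethiol oxidase activity and not as an ER folding factor. It was at 19.3 and 20.1 FPKM in wild type, against 6.86 and 8.29 FPKM in knockout, 2.60-fold lower by the means (a log2 fold change of -1.28, SE 0.12, limma adjusted p = 7.83e-07). It and Dnajc10 were the 2 members that fell. Members at least 2-fold higher by the means and called were Sdf2l1, Pdia5, Sec61b, Hspa5 and Serp1, 5 of 34, beside 13.6% of all genes tested. Selenbp1 was the 1 member called lower and at least 2-fold lower by the means, beside 11.3% of all genes tested. The untested Derl3 was 2.07-fold lower by the means, at levels near or under the filter.

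Other genes of the secretory pathway, in lists that exclude the members, were set beside them. Of all genes tested, 35.2% were called higher and 30.6% lower as deposited, and 25.3% and 45.3% with equal column totals. Other ER folding enzymes included 23 rises and 3 falls among 37 tested, with a median log2 fold change of 0.35. Among them Fkbp11, a peptidyl-prolyl isomerase of secretory cells, went from 19.3 and 16.9 FPKM to 89.6 and 89.2 FPKM (a log2 fold change of 2.24, SE 0.11, limma adjusted p = 8.96e-10), and Tmx4, a membrane thioredoxin, from 16.5 and 16.2 FPKM to 8.68 and 10.4 FPKM. Other translocon and signal peptidase genes included 15 rises and 1 fall among 22 tested (median 0.49), led by Sec61g, the third subunit of the channel, from 84.2 and 74.5 FPKM to 229 and 211 FPKM. Sec61a1, Sec61b and Sec61g, which together form the channel, all rose, with log2 fold changes of 0.82, 1.29 and 1.46 as deposited. With length and GC trends removed, Sec61a1 and Sec61b were at 0.82 and 0.87. Sec61a2, also in this list, did not pass (0.0045, limma adjusted p = 0.978). The oligosaccharyltransferase, which adds N-glycans at the channel, rose in 10 of 12 cases (median 0.58), led by Tmem258 at 2.26-fold. The log2 fold change of Tmem258, 1.17 as deposited, was 0.73 after removal of the length and GC trends. With equal column totals the medians of these lists were 0.091 for folding enzymes (12 rises and 7 falls), 0.23 for translocon genes (10 rises and 3 falls) and 0.32 for the oligosaccharyltransferase (7 rises and 1 fall). The single translocon fall, Tram2 (-0.39), was -0.061 after removal of the length and GC trends (limma adjusted p = 0.692). It was also not called with no filter (0.099), without wild-type library 1 (0.222) or without knockout library 1 (-0.20, 0.199), and was -0.62 with equal column totals.

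Other genes of ER-associated degradation included 14 rises and 2 falls among 26 tested (median 0.27), with a median of 0.015, 5 higher and 5 lower at equal column totals, and a median of 0.14 with 8 higher with length and GC trends removed. Ube2g2, a ubiquitin-conjugating enzyme of this route, rose by 0.82 on the log2 scale. Without wild-type library 2 the count of rises was 8, and without wild-type library 1, wild-type library 2 or knockout library 1 no fall was called. Ngly1, a deglycosylating enzyme, was among the falls (log2 fold change -0.38), and its call ended when any of these 3 libraries was left out (limma adjusted p = 0.0574, 0.149 and 0.0994) and with no filter (0.062). ER-to-Golgi transport genes included 15 rises and 2 falls among 29 tested (median 0.33), with Kdelr2, which returns ER residents from the Golgi, at 80.6 and 73.2 FPKM and at 134 and 150.1 FPKM. At equal column totals the median of the transport genes was 0.071, with 14 rises and 6 falls. In that scaling 25.3% of all genes tested were called higher and 45.3% lower, against 35.2% and 30.6% with the values as deposited. With 1 library left out, the median of the transport genes ranged from 0.19 to 0.45.

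The third sensor, PERK, favours the translation of ATF4, which other kinases also induce. Levels of the genes below therefore cannot tell PERK activity from that of the other kinases. Genes of the PERK and ATF4 arm included 15 rises and 1 fall among 18 tested, with a median log2 fold change of 1.79. Of them, 14 were called and at least 2-fold higher by the means, beside 13.6% of all genes tested. Asns, the asparagine synthetase that ATF4 induces, went from 0.879 and 0.883 FPKM to 63.2 and 75.1 FPKM, and Vldlr, a lipoprotein receptor, fell by 0.55 on the log2 scale, a call lost after removal of the length and GC trends (-0.23, limma adjusted p = 0.0851) and without wild-type library 2 (-0.44, 0.0521). The gene for PERK itself, Eif2ak3, did not pass (0.22, limma adjusted p = 0.145). Other sensors and processing proteases included 3 rises and 2 falls among 10 tested, beside 35.2% higher and 30.6% lower of all genes tested. Their median was 0.22, and -0.023 at equal column totals. With length and GC trends removed, 6 genes of this list rose, a count with no share of all genes tested beside it. Creb3, a relative of ATF6, rose by 0.67 and Creb3l2 fell by 0.46, with the Creb3l2 call lost after removal of the length and GC trends (-0.10, limma adjusted p = 0.362) and without wild-type library 1 (-0.38, 0.0767). With equal column totals these values were 0.41 and -0.71. The median of the members' chaperones, 0.65, and that of their degradation genes, 0.20, were thus both below that of the ATF4 list. The differences between lists were not tested.

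**Figure D4:**
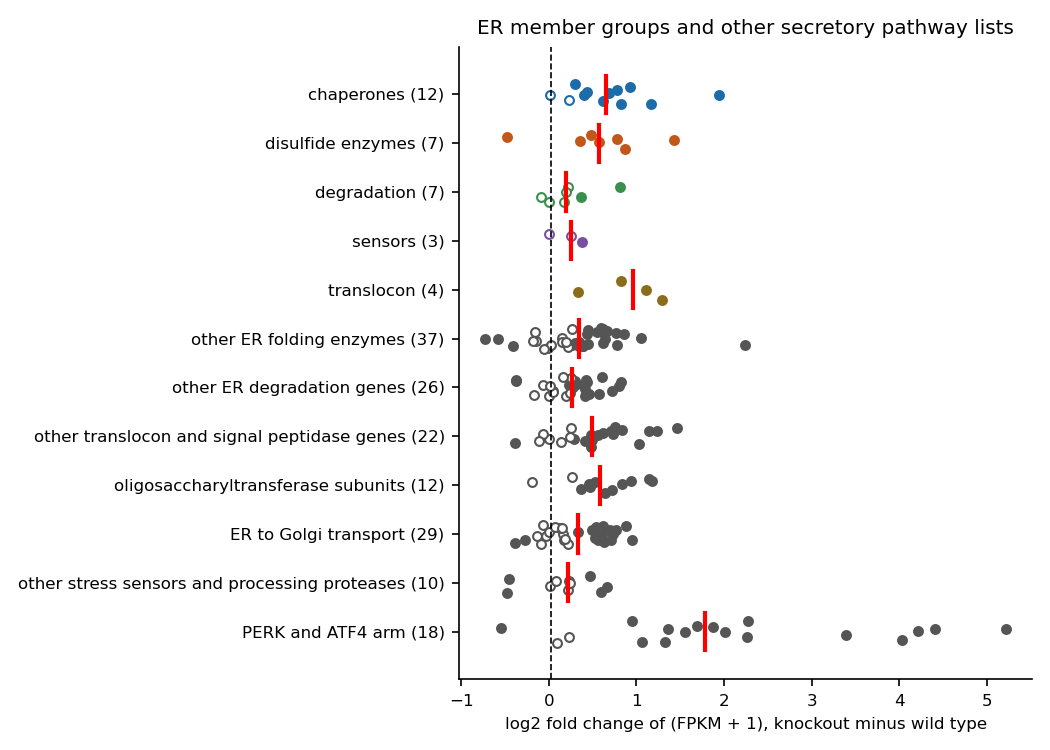
Log2 fold change of (FPKM + 1), knockout minus wild type, of each tested gene (points, filled where the adjusted p was under 0.05) in 5 member groups (coloured) and 7 other lists (grey), with the number of tested genes in brackets. Red bars are list medians and the dashed line is the median of all genes tested (0.03); the PERK and ATF4 arm lies furthest to the right at 1.79.

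Within genotypes the members did not scatter evenly. In knockout, 30 of 34 members were higher in library 2 than in library 1 (median ratio 1.13, range 0.889 to 1.27), beside 70.3% of all genes tested (median ratio 1.08). In wild type, 7 of 34 were higher in library 2 (median ratio 0.943), beside 50.8% of all genes tested. Chaperones and disulfide enzymes of high abundance, such as Hsp90b1 and P4hb, were among those higher in knockout library 2.

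**Figure D5:**
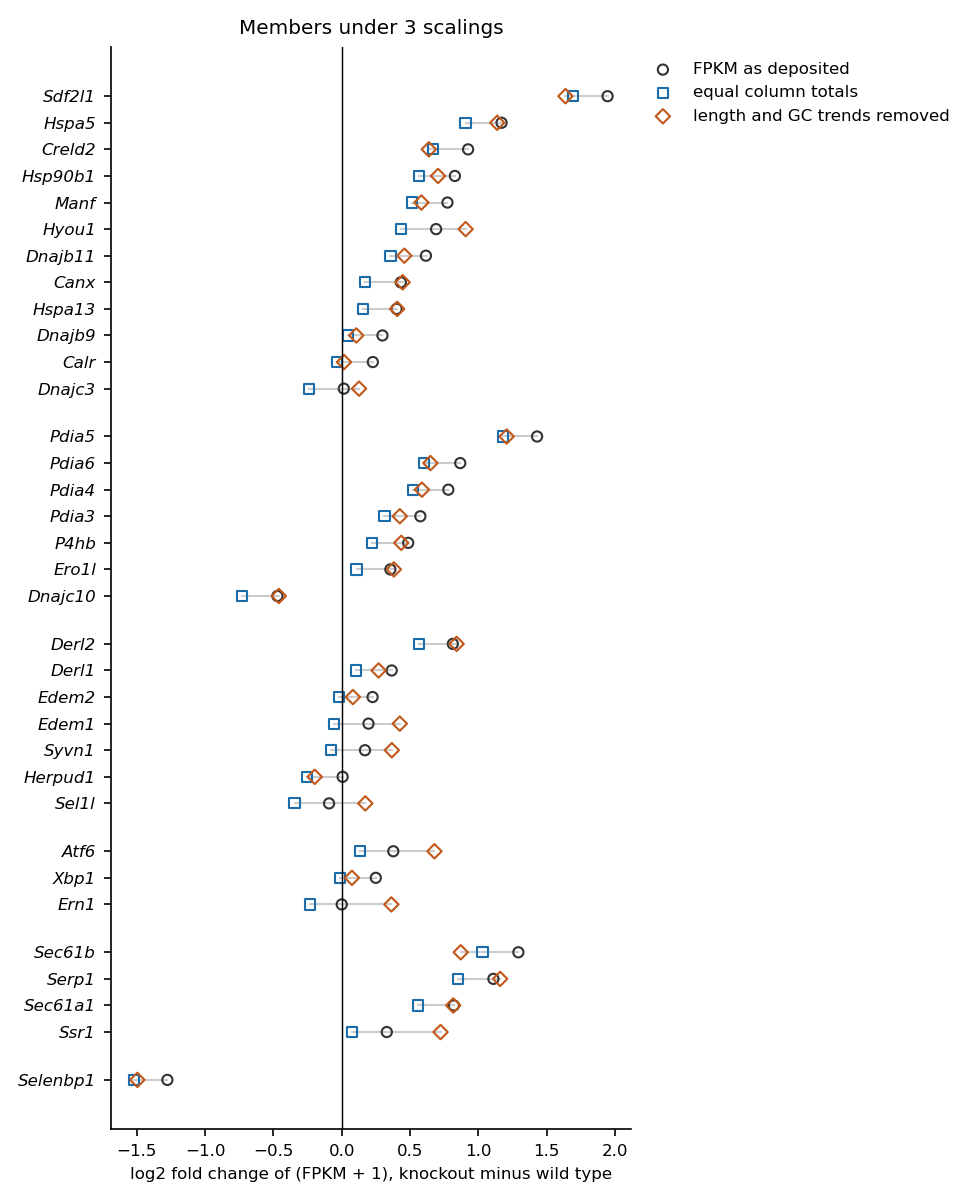
Log2 fold change of (FPKM + 1), knockout minus wild type, of the 34 tested members with FPKM as deposited (circles), with equal column totals (squares) and with length and GC trends removed (diamonds). The rises of Sdf2l1, Hspa5, Pdia5, Sec61b and Serp1 keep their side of 0 in the 3 settings, while Dnajc3, Calr, Edem1, Edem2, Herpud1, Sel1l, Syvn1, Xbp1 and Ern1 lie on either side of it.

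Exons of 10 members overlap exons of another gene in GENCODE M21, namely Hsp90b1, Dnajb9, Manf, Pdia3, Pdia4, Pdia6, Syvn1, Derl2, Sec61a1 and Serp1. In Dnajb9 and Pdia4 the other gene is a microRNA, and in Hsp90b1, Manf and Pdia4 at least 1 such gene lies on the same strand. Ggps1, which checked the labels, overlaps Arid4b on the opposite strand. No source used here says whether strand was used in counting. Without it reads from the overlap of genes on opposite strands cannot be told apart. For genes on the same strand, strand would not separate them either.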

How the data were processed

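The authors deposited FPKM values for each library, as a misspelt unit in the file headers says. Tools listed in the submitters' processing notes, with no role given, are HISAT2 2.0.5 along with featureCounts 1.5.0-p3 and also DESeq2 1.16.1, and the build is mm10. Low values (under 0.3 FPKM) showed no common step: the most frequent ratio between libraries, to 3 decimals, covered at most 0.464% of genes, so counts were not recovered, depth is unknown, and no detection limit is given. The 12314 genes that reached 1 FPKM in 2 or more libraries were tested on log2(FPKM + 1) by limma 3.58.1 (R 4.3.3), whose variance prior followed the intensity, 2 libraries against 2, with Benjamini-Hochberg adjustment over all of them. Fold changes on this scale understate the change of low genes; folds "by the means" are ratios of mean FPKM. Each gene's test had 13.4 degrees of freedom, 2 from its own libraries and the rest from the prior. An exact permutation test cannot go under p = 0.333. The fit was also run on simulated data, the outcome of which is not reported here, and no result rests on it.

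The members and lists were chosen with earlier results of these data known, so no list was tested as a set. All members are named, with Ggps1, Acta2, Tagln and Myh11 as checks. Of each of the 7 other lists, cell markers aside, the rule was to name the called gene with the smallest p in each direction. Sec24d, that gene among the falls of ER-to-Golgi transport (log2 fold change -0.39), is not named above. Sec61a2, Sdc1 and Eif2ak3 are named outside this rule, and Eif2ak3 was named after its value was seen. Sequences are from RefSeq (GRCm38.p6), and coordinates of genes from GENCODE M21 (mm10). Length and GC of the longest transcript were at hand for 99.3% of the genes tested. Alternatives were 2 pseudocounts, 2 filters, 2 scalings, 2 variance models, removal of length and GC trends, and each library left out.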

Additional observations from a re-analysis of the deposited data

How the results depend on the processing

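No paired analysis was possible because the labels number the libraries through both genotypes and share no number between them. With equal column totals, members called higher and lower were 15 and 4 and the median log2 fold change 0.16. Medians there were 0.395 for chaperones, 0.31 for disulfide enzymes, -0.057 for degradation (1 higher, 2 lower), -0.012 for sensors (0 higher) and 0.70 for the translocon. In the other lists they were 0.091 for folding enzymes (12 higher, 7 lower) and 0.015 for degradation (5 higher, 5 lower). For translocon genes the median was 0.23 (10 higher, 3 lower), and for oligosaccharyltransferase 0.32 (7 higher, 1 lower). It was 0.071 for ER-to-Golgi transport (14 higher, 6 lower), -0.023 for sensors and 1.52 for the PERK and ATF4 arm. Single values that changed sign there were Calr -0.036, Dnajc3 -0.24, Edem1 -0.057, Edem2 -0.022, Herpud1 -0.25, Syvn1 -0.082 and Xbp1 -0.012. With length and GC trends removed, medians were 0.43 for disulfide enzymes, 0.27 for degradation (4 higher), 0.84 for the translocon, 0.14 for other degradation genes (8 higher), 0.30 for other translocon genes (0 lower), 0.49 for oligosaccharyltransferase, 0.28 for other sensors (6 higher, 0 lower) and 1.72 for the PERK and ATF4 arm (0 lower), with 2 member sensors higher, 5 folding enzymes lower, 1 transport gene lower, and Ern1, Sel1l and Herpud1 at 0.36, 0.17 and -0.20. With no filter, 0 other degradation, 0 other translocon and 1 transport gene were lower. With pseudocounts of 0.1 and 5 the PERK and ATF4 median was 1.85 and 1.65, and with 5 the other sensors' was 0.18 and Ern1 was at 0.0002. With median-ratio scaling Dnajc3 was at -0.0045 and Herpud1 at -0.013. Leaving out 1 library gave ranges of 1 to 2 members lower, 0 to 1 disulfide enzymes lower, 1 to 2 degradation members higher (median 0.11 to 0.28), 0 to 1 sensors higher, 8 to 16 other degradation genes higher and 0 to 2 lower, 0 to 1 other translocon genes lower, 0 to 1 oligosaccharyltransferase subunits lower, 1 to 3 transport genes lower (median 0.19 to 0.45), 1 to 2 other sensors lower (median 0.17 to 0.21) and 0 to 1 ATF4 genes lower. Dnajc3 ranged from -0.0996 to 0.13, Herpud1 from -0.084 to 0.097, Ern1 from -0.083 to 0.082 and Sel1l from -0.25 to 0.060. The cause of these changes was not tested. With 1 library left in a genotype, it is assumed to vary like the other genotype's. Depth is unknown, so precision rests on 2 libraries per genotype.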
